A study of Mus musculus with 12 samples.

Results

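The genes described here are 9 components of cell-cell junctions: the junctional adhesion molecules Jam2 and F11r, the cadherins Cdh1 and Cdh2, the claudins Cldn3, Cldn4, Cldn6 and Cldn7, and the tight junction protein Ocln. They are the entries of a gene-level array table whose symbol equals 1 of these names, 9 of 30854 genes. The names were chosen with values from these same arrays in view, so their levels and differences are given as a description and no p-value is printed for them. Of the 9 genes, 7 passed the filter on low signals (a detection p under 0.01 on each of the 3 arrays in 1 or more groups), while Cdh2 and Ocln did not.

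Expression was measured in 12 mouse pluripotent stem cell samples, each on 1 Illumina WG-6 BeadChip array. The 4 groups of 3 samples were wild type, loss of function of Lin28a, loss of function of Lin28b, and loss of function of both paralogs, here called double loss. All cells were grown in embryonic stem cell medium with serum and Lif. The tissue is labelled embryonic stem cells, but the controls are named as wild-type iPS cells in the design text. Each group is 1 line by its sample titles (wt2, AK01, BK06 and DK05), so line and genotype cannot be told apart, and nothing in the labels says that the replicates came from separate cultures, in which case the errors and p-values measure only the spread between these samples. By array position, 1 chip held the wild-type and Lin28a-loss samples and a second chip held the Lin28b-loss and double-loss samples. Lin28a loss against wild type and double loss against Lin28b loss are therefore comparisons within a chip, while in comparisons across chips the chip and the genotype cannot be told apart.

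Tight junctions seal the space between epithelial cells with strands of claudins, and carry occludin and the junctional adhesion molecules beside them, while adherens junctions hold cells together through cadherins. Mouse embryonic stem cells are held together by E-cadherin, the product of Cdh1, and N-cadherin, the product of Cdh2, marks neural and mesenchymal cells. LIN28A and LIN28B bind RNA and block the maturation of let-7 microRNAs.

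Arrays had mean raw signals of 325.4 to 596.7 and 9377 to 10773 genes above background. The normalized log2 signal of Lin28a was 7.97 ± 0.10 (SD, n = 3) for wild type, 5.66 ± 0.08 for Lin28a loss, 7.03 ± 0.17 for Lin28b loss and 5.48 ± 0.17 for double loss, and Lin28b was above background in no group, so its loss could not be checked. All 10 pluripotency markers listed, Lin28a among them, were above background on all 12 arrays. Of 10 fibroblast or feeder markers, Acta2 alone was above background on the 3 arrays of any group. The brightest arrays of their groups by raw signal were wild type replicate 1, Lin28a loss replicate 3 and double loss replicate 1.

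Sequence upstream of the claudins is shown first because Cldn3, Cldn4 and Cldn7 were lower in double loss than in Lin28b loss and Cldn6 was not. Each line holds 250 bases before to 50 after an annotated start in RefSeq (GRCm38.p6), read on the gene's strand, with capitals marking each CACCTG or its complement CAGGTG, the letters that the SNAIL and ZEB repressors of Cdh1 are known to recognise. Cldn3 and Cldn4 lie on chromosome 5, at chr5:134985964-134986263 on the plus strand and chr5:134946885-134947184 on the minus strand. The Cldn7 window shown is chr11:69965171-69965470 on the plus strand, and the Cldn6 window is chr17:23679115-23679414 on the plus strand.
Cldn3: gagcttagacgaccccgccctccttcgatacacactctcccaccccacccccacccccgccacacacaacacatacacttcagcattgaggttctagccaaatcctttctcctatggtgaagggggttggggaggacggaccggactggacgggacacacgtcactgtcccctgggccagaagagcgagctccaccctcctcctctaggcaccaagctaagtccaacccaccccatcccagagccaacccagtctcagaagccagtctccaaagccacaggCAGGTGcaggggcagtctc
Cldn4: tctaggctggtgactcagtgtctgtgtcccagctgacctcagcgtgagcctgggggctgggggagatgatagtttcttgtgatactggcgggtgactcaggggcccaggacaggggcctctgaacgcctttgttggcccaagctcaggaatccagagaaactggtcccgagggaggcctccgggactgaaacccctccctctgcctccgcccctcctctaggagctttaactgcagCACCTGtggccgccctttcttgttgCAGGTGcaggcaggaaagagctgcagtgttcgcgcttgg
Cldn7: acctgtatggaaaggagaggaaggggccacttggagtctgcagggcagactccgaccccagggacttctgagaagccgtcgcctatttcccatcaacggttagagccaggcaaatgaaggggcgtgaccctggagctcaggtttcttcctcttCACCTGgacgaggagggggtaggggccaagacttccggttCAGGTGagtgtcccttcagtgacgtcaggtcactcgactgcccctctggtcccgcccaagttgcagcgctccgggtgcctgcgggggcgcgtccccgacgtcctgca
Cldn6: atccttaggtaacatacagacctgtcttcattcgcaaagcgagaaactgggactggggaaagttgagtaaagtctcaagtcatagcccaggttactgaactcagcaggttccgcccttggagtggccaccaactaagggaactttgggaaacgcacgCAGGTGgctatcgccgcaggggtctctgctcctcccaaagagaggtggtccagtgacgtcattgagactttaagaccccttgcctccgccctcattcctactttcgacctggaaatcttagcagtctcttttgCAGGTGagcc
CACCTG or CAGGTG, searched on both strands, stood in all 4 of these windows and in 7 of the 8 windows that the table holds for the 9 genes (F11r, Cldn3, Cldn4 and Cldn6 with 1 window each, Cldn7 and Ocln with 2). The exception was the upstream window of Cldn7, and the windows of Ocln overlap each other. Of all 32851 windows, 20.2% held these letters, and of the 13590 windows whose GC content lay in the range of the 8 windows (52% to 68%), 23.4% did. The motif is 1 form of CANNTG, which stood in 72.3% of all windows and likewise in 7 of the 8. GGGCGG or CCGCCC stood in 35.7% of all windows and also in 7 of the 8. AACCNGTT, the letters that Grainyhead-like factors are known to recognise, was searched on 1 strand only. It stood in 1.09% of all windows and in none of the 8. Cldn6, whose window held the CAGGTG letters like the others, had a different order of groups from Cldn3, Cldn4 and Cldn7. No binding was measured, and the part of these letters in the claudin differences was not tested.

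Among the junctional adhesion molecules, Jam2 differed most. It encodes JAM-B, an immunoglobulin-family protein of endothelial and other junctions. On the normalized log2 scale its signal was 6.19, 6.01 and 6.03 in the wild-type replicates 1 to 3, 7.51, 7.76 and 8.40 in Lin28a loss, 9.03, 9.19 and 9.11 in Lin28b loss, and 9.19, 8.81 and 8.89 in double loss. All 9 arrays with a loss lay above all 3 wild-type arrays, and Lin28a loss lay between wild type and the other groups without overlap. Lin28b loss and double loss overlapped.

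Compared with wild type, Jam2 was higher in Lin28a loss by 1.81 ± 0.18 log2 (SE, n = 3 per group, 95% interval 1.42 to 2.21), a 3.51-fold difference. The difference was 3.03 ± 0.18 in Lin28b loss, or 8.18-fold, and 2.89 ± 0.18 in double loss, or 7.39-fold. In absolute size, the difference of Lin28b loss exceeded that of 99.8% of the 9920 genes tested, and that of Lin28a loss exceeded 98.9%. Within the second chip, double loss differed from Lin28b loss by -0.15 ± 0.18 (95% interval -0.54 to 0.25). The difference of Lin28a loss from wild type rested partly on replicate 3 and was 1.56 without it; it was 1.30 without background correction.

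The table has a second entry, under the symbol Jcam2, which the RefSeq table lists as a synonym of Jam2. It was singled out after its values were seen. This entry was above background on none of the wild-type arrays, where it read 4.56, 4.65 and 4.63, and on all arrays of the other groups. It read 8.87, 8.86 and 9.38 in Lin28a loss, 7.17, 7.04 and 6.64 in Lin28b loss, and 8.17, 8.0 and 7.98 in double loss. Both entries therefore put wild type lowest, without overlap, but they put the 3 loss groups in different orders.

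By the Jcam2 entry, Lin28a loss was at least 10.3-fold higher than wild type, Lin28b loss at least 2.44-fold and double loss at least 5.23-fold. These are lower bounds, set against the lowest signal that counted as above background on each wild-type array. Lin28a loss exceeded Lin28b loss by 2.08 ± 0.16 log2 by this entry, where the entry named Jam2 gave a difference of -1.22 ± 0.18. Double loss exceeded Lin28b loss by 1.10 ± 0.16 (95% interval 0.76 to 1.45), where the entry named Jam2 gave an interval that includes 0. The probes behind the entries were not analysed here, so what each one reads was not tested.

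F11r encodes JAM-A, the junctional adhesion molecule of epithelial tight junctions. Its signal was 8.36, 8.10 and 8.18 in wild type, 8.01, 7.85 and 7.86 in Lin28a loss, 8.31, 8.03 and 8.07 in Lin28b loss, and 7.84, 7.83 and 7.82 in double loss. The double-loss arrays lay below all 9 others, and Lin28a loss lay below wild type and below Lin28b loss. Wild type and Lin28b loss overlapped.
F11r was lower by 0.30 ± 0.10 log2 in Lin28a loss than in wild type (log2 difference -0.30, 95% interval -0.52 to -0.09). Double loss was lower than Lin28b loss by nearly the same amount (-0.31 ± 0.10). The difference between these within-chip values was 0.00 ± 0.14, with a 95% interval from -0.31 to 0.31, and their mean was -0.31 ± 0.07. Across chips, Lin28b loss differed from wild type by -0.08 ± 0.10. Jam2 and F11r thus moved apart in Lin28a loss, with Jam2 higher and F11r lower.

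**Figure D1:**
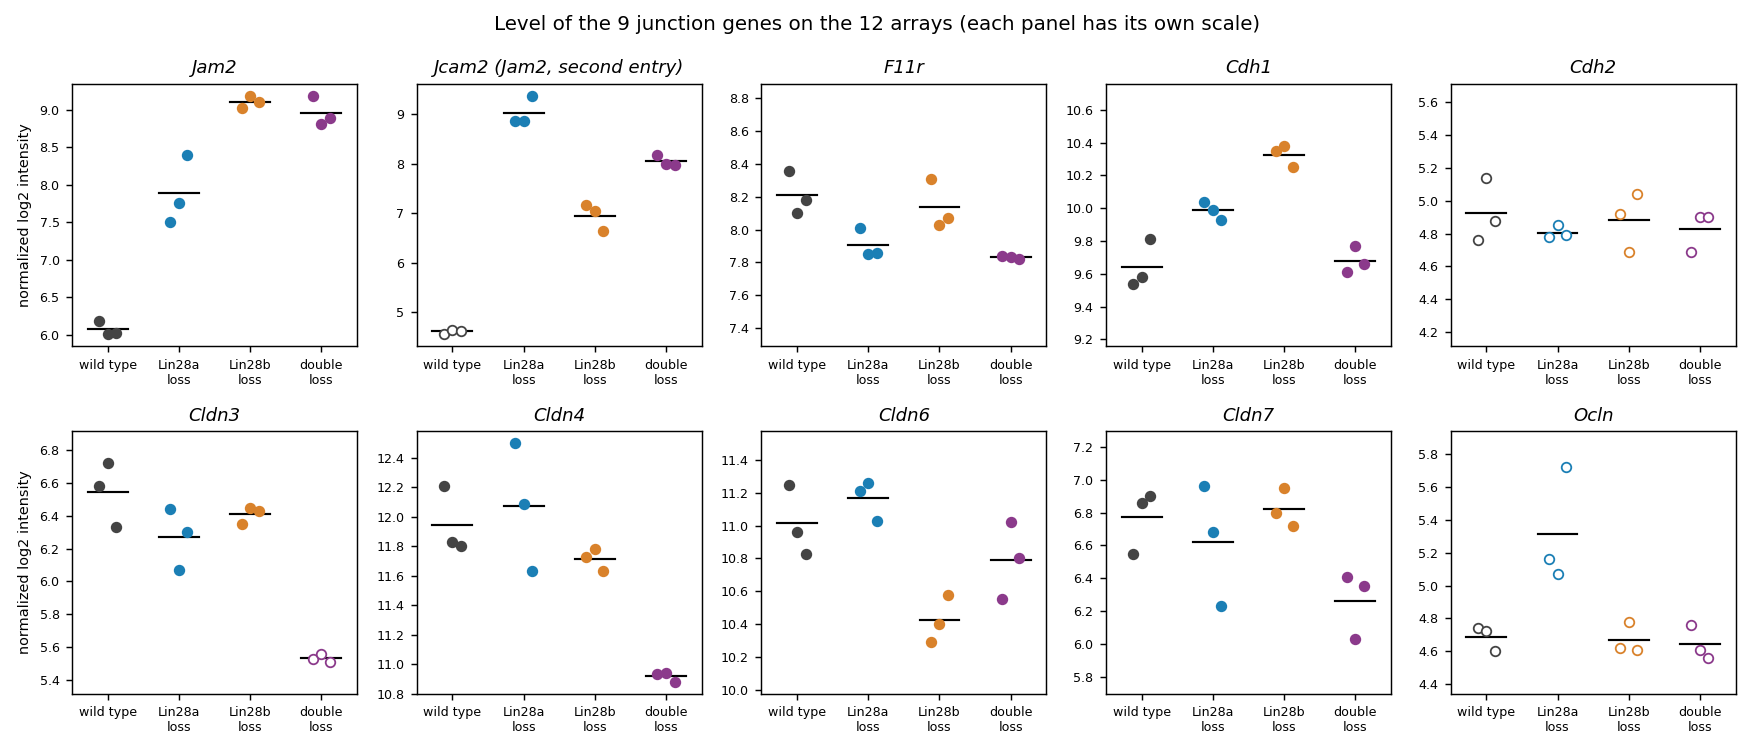
Normalized log2 intensity (vertical axis, own scale in each panel) of the 9 junction genes and the second Jam2 entry, Jcam2, on the 3 arrays of each group, with 1 point per array, a bar at the group mean, and open points where the gene was not above background on all 3 arrays of the group. Jam2 and Jcam2 are lowest in wild type, Cdh1 is highest in Lin28b loss, and the Cldn3 and Cldn4 arrays of double loss lie below all others.

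Cdh1, which encodes E-cadherin, was highest in Lin28b loss. Its signal was 9.54, 9.58 and 9.81 in wild type, 10.04, 9.99 and 9.93 in Lin28a loss, 10.35, 10.38 and 10.25 in Lin28b loss, and 9.61, 9.77 and 9.66 in double loss. The Lin28b-loss arrays lay above all others, Lin28a loss came next without overlap, and wild type and double loss overlapped. Each single loss thus had more Cdh1 signal than wild type, and the double loss did not.
Lin28a loss exceeded wild type by 0.34 ± 0.09 log2 (95% interval 0.14 to 0.55) and Lin28b loss exceeded it by 0.68 ± 0.09, while double loss differed from it by 0.04 ± 0.09 (95% interval -0.17 to 0.24). Within the second chip double loss was below Lin28b loss by 0.65 ± 0.09 (log2 difference -0.65, 95% interval -0.85 to -0.44). The value of double loss against wild type turned to -0.08 when arrays were scaled to a common median, a setting that also brought the difference of Lin28b loss from wild type to 0.38.

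Cdh1 lies on chromosome 8, and the genes of that chromosome moved with it. The median log2 difference of its 489 tested genes was 0.24 in Lin28a loss and 0.25 in Lin28b loss against wild type, and -0.34 in double loss against Lin28b loss, while the medians of the genes on other chromosomes were -0.04, -0.02 and 0.01. In Lin28a loss 40.5% of the tested chromosome 8 genes exceeded the difference of Cdh1 from wild type, and in Lin28b loss 12.3% did. In double loss against Lin28b loss, 20.9% of them had a larger decrease than Cdh1. The chromosome 16 of Jam2 showed no such shift, with medians over 238 genes between -0.02 and 0.03 in 5 comparisons. The part of the chromosome 8 shift in the differences of Cdh1 was not tested.
The summed level of 6 listed neuroectoderm markers was also higher in both single losses, at 85 to 100 for wild type, 1083 to 1656 for Lin28a loss, 456 to 493 for Lin28b loss and 108 to 128 for double loss. Olig1 averaged 4.77, 10.32, 8.44 and 4.81 in the same order, and the higher sums of the single losses came mostly from this gene. Nes, above background on all 12 arrays, averaged 6.11, 6.49, 6.98 and 6.46, with double loss close to Lin28a loss. Sox1, Pax6, Sox3 and Neurog2 were above background on no array. The part of these markers in the Cdh1 differences was not tested.

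**Figure D2:**
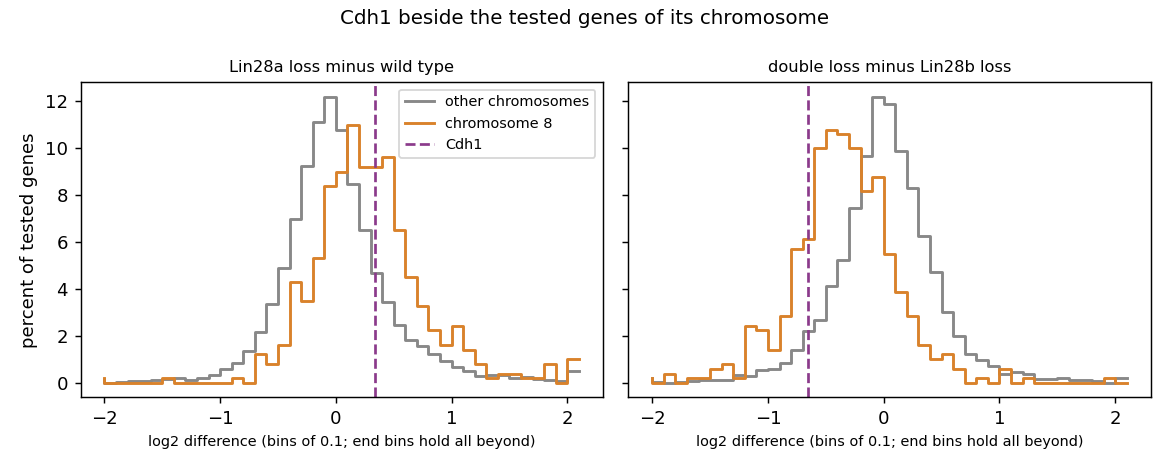
Percent of tested genes (vertical axis) by log2 difference (horizontal axis, bins of 0.1) for genes of chromosome 8 and genes of other chromosomes in Lin28a loss minus wild type (left) and double loss minus Lin28b loss (right), with a dashed line at Cdh1. The chromosome 8 genes lie to the right on the left side (median 0.24) and to the left on the right side (median -0.34), and Cdh1, at 0.34 and -0.65, lies within their range in both.

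The 5 genes with profiles most like that of Cdh1, by the root mean square difference of centred log2 values over the 12 arrays, were Il17rc (0.0938), 4931428F04Rik (0.0953), Piezo1 (0.103), Spcs3 (0.104) and E330010G16Rik (0.106), against a median of 0.381 over 7663 genes. Of these, 4931428F04Rik, Piezo1 and Spcs3 lie on chromosome 8 and Il17rc on chromosome 6. For the entry named Jam2 the 5 most similar profiles were those of H2-Eb1 (0.455), Pga5 (0.536), Zfp985 (0.555), C1galt1 (0.626) and Cabs1 (0.633), against a median of 1.25. The profile of H2-Eb1, a class II histocompatibility gene, had group means of 6.11 for wild type, 8.03 for Lin28a loss, 8.55 for Lin28b loss and 8.96 for double loss. These likenesses are descriptions over arrays that share chips and groups.

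Cdh2, which encodes N-cadherin, was above background on 0 of 12 arrays. Its group means were 4.93 for wild type, 4.81 for Lin28a loss, 4.89 for Lin28b loss and 4.83 for double loss, and the arrays of all 4 groups overlapped. The signal of Cdh2 combines several probes, as does that of Jam2. Some genes of this kind miss the detection threshold while bright, so the missing call alone places no limit on its expression. The raw signals of Cdh2, 49.6 to 74.6, lay near the estimated background means of the arrays, 41.97 to 61.18.

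Cldn3 and Cldn4, which lie close together on chromosome 5 and whose products are receptors of a Clostridium enterotoxin, were lowest in double loss. The Cldn4 signal was 12.21, 11.83 and 11.80 in wild type, 12.50, 12.09 and 11.63 in Lin28a loss, 11.73, 11.78 and 11.63 in Lin28b loss, and 10.93, 10.94 and 10.88 in double loss. The Cldn3 signal was 6.58, 6.72 and 6.33 in wild type, 6.44, 6.07 and 6.30 in Lin28a loss, 6.35, 6.45 and 6.43 in Lin28b loss, and 5.53, 5.56 and 5.51 in double loss. For both genes the double-loss arrays lay below all 9 others, and for Cldn3 only 1 of those 3 arrays was above background. The arrays of Lin28a loss and wild type overlapped for both genes.

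Double loss was below Lin28b loss by 0.80 ± 0.18 log2 for Cldn4 (log2 difference -0.80, 95% interval -1.18 to -0.41) and by 0.88 ± 0.11 for Cldn3 (log2 difference -0.88, 95% interval -1.12 to -0.63). Against wild type the difference was -1.03 ± 0.18 for Cldn4, or 2.04-fold, and -1.01 ± 0.11 for Cldn3. Lin28a loss differed from wild type by 0.13 ± 0.18 for Cldn4 (95% interval -0.26 to 0.51) and by -0.27 ± 0.11 for Cldn3 (95% interval -0.52 to -0.03). The Cldn4 difference of Lin28a loss was 0.49 without the brightest arrays of wild type, Lin28a loss and double loss. Without background correction the Cldn3 differences of double loss were -0.49 from Lin28b loss and -0.58 from wild type.

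Cldn7, a claudin of epithelial lateral membranes, had signals of 6.55, 6.86 and 6.90 in wild type, 6.96, 6.68 and 6.23 in Lin28a loss, 6.80, 6.95 and 6.72 in Lin28b loss, and 6.41, 6.03 and 6.35 in double loss. The double-loss arrays lay below those of wild type and Lin28b loss but overlapped Lin28a loss, whose spread was 0.37 (SD). Double loss differed from Lin28b loss by -0.56 ± 0.17 log2 (95% interval -0.93 to -0.19) and from wild type by -0.51 ± 0.17. Lin28a loss and Lin28b loss overlapped with wild type, at differences of -0.14 ± 0.17 and 0.06 ± 0.17.

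Cldn6, a claudin of embryonic epithelia, was lowest in Lin28b loss instead. It read 11.25, 10.96 and 10.83 in wild type, 11.21, 11.26 and 11.03 in Lin28a loss, 10.29, 10.40 and 10.58 in Lin28b loss, and 10.55, 11.02 and 10.80 in double loss. Lin28b loss lay below wild type and Lin28a loss and overlapped double loss. Its difference from wild type was -0.59 ± 0.14 log2 (95% interval -0.89 to -0.29), and -0.88 when arrays were scaled to a common median. Double loss differed from Lin28b loss by 0.37 ± 0.14, in the opposite direction to the other 3 claudins.

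Ocln encodes occludin. It was above background on 1 of 12 arrays, replicate 3 of Lin28a loss. The signals in Lin28a loss were 5.16, 5.07 and 5.72, above all arrays of the other groups, whose means were 4.69 ± 0.08 in wild type, 4.67 ± 0.09 in Lin28b loss and 4.64 ± 0.10 in double loss (SD, n = 3).

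As for Cldn3, Cldn4 and Cldn7, the summed level of a trophoblast marker list was lowest in double loss. The summed normalized intensity of 10 listed markers, on the linear scale, was 3004 to 3303 for wild type, 1890 to 2108 for Lin28a loss, 2461 to 2597 for Lin28b loss and 1348 to 1401 for double loss. Krt8, a keratin of simple epithelia, averaged 10.19 for wild type, 9.40 for Lin28a loss, 9.67 for Lin28b loss and 8.94 for double loss. Not all markers had that order: Eomes, above background on 9 arrays, was lowest in Lin28a loss (5.10, beside 5.25 in double loss), and Krt7 averaged 5.71 in Lin28b loss and 5.73 in double loss. Cdx2 was above background on 2 arrays each of wild type (mean 5.64) and double loss (5.62), and Elf5 and Gata3 on no array. The part of these markers in the claudin differences was not tested. The summed level of 10 fibroblast or feeder markers was 294 to 311 for wild type and 306 to 388 for Lin28a loss. It was 286 to 370 for Lin28b loss and 425 to 482 for double loss. Acta2, the marker above background, averaged 7.36, 5.36, 7.71 and 8.24 in the same order. Thy1, above background on no array, averaged 6.75, 8.12, 6.26 and 6.80 and so exceeded Acta2 in Lin28a loss. For 10 primitive endoderm markers the sums were 1352 to 1610, 1703 to 1976, 1538 to 1708 and 1693 to 1980 in the same order. For 6 mesoderm markers they were 108 to 143, 59 to 66, 95 to 126 and 70 to 74. The mesoderm marker T was above background on the 3 wild-type arrays and on no other.

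**Figure D3:**
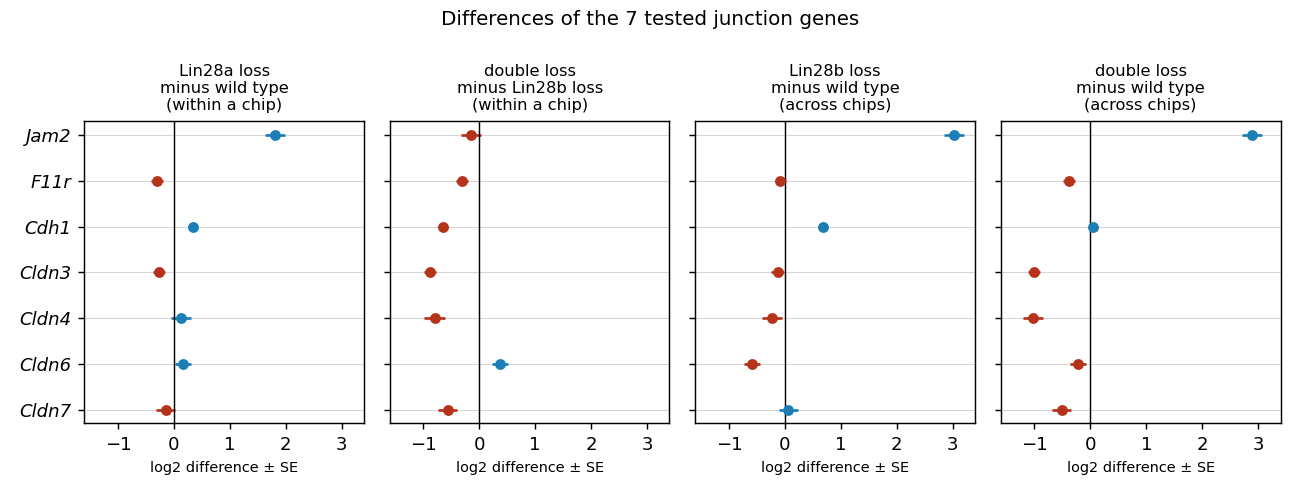
Log2 difference (horizontal axis) with its standard error for the 7 tested junction genes in the within-chip comparisons (2 panels on the left) and the comparisons across chips (2 panels on the right), from 3 arrays per group. Jam2 is to the right of 0 in all 3 comparisons with wild type, and in double loss minus Lin28b loss Cldn6 alone is to the right of 0.

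Over the 7 tested genes, 3 passed an adjusted p under 0.05 in Lin28a loss against wild type (Jam2 and Cdh1 higher, F11r lower), where 36.7% of all tested genes did, 18.3% higher and 18.4% lower. In Lin28b loss against wild type 3 passed (Jam2 and Cdh1 higher, Cldn6 lower), beside 36.2% of all genes, 18.9% higher and 17.2% lower. In double loss against wild type 5 passed (Jam2 higher, F11r, Cldn3, Cldn4 and Cldn7 lower), beside 37% of all genes, 17.9% higher and 19.1% lower. Double loss against Lin28b loss gave 5, all lower (F11r, Cdh1, Cldn3, Cldn4 and Cldn7), beside 36.6% of all genes, 16.9% higher and 19.7% lower. The interaction, which is the difference of Lin28a loss within the second chip less that within the first, was passed by 4 (Jam2, Cdh1, Cldn3 and Cldn4, all negative), beside 37.8% of all genes, 17.5% positive and 20.3% negative. The arrays of both groups did not overlap for 3 of the 7 in Lin28a loss against wild type (43.8% of all genes), 4 in Lin28b loss (53.4%), 5 in double loss (47.4%) and 5 in double loss against Lin28b loss (53.8%). Since the genes were chosen with these contrasts known, nothing is read from these counts.

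The interaction is free of an effect that a chip adds equally to all its arrays. It was -1.96 ± 0.26 log2 for Jam2, -0.99 ± 0.13 for Cdh1, -0.92 ± 0.25 for Cldn4 and -0.60 ± 0.16 for Cldn3. For Cdh1 this stands beside a median of -0.59 over the 489 tested genes of chromosome 8, of which 23.1% had a more negative value than Cdh1. For F11r, Cldn6 and Cldn7 the 95% intervals of the interaction included 0.

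The rest of the junction was read from 5 lists of 97 other genes: claudins and tight junction membrane proteins, tight junction scaffold and polarity proteins, adherens junction proteins and cadherins, desmosome proteins, and regulators of E-cadherin and the epithelial state. Of these genes 95 were in the table and 50 were tested, with limma and p-values adjusted by Benjamini-Hochberg over all 9920 genes. In Lin28a loss 12 rose and 6 fell against wild type, 36% of the 50 beside 36.7% of all genes. In Lin28b loss 12 rose and 5 fell, 34% beside 36.2%. In double loss 13 rose and 10 fell against wild type, 46% beside 37%, and 10 rose and 15 fell against Lin28b loss, 50% beside 36.6%. When arrays were scaled to a common median, fewer of the 50 passed: 5 rose and 0 fell in Lin28a loss, 2 rose and 5 fell in Lin28b loss, 1 rose and 6 fell in double loss against wild type, and 3 rose and 4 fell in double loss against Lin28b loss. These are 10%, 14%, 14% and 14% of the 50, beside 14.2%, 17.5%, 17.4% and 12.4% of all genes under that scaling. A gene of these lists is named below where it differed by at least 2-fold with an adjusted p under 0.05 in 1 of these 4 comparisons (Cgn, Pard6g, Jup, Snai3, Grhl2, Esrp1 and Prss8), and the others named were chosen after their values were seen.

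The scaffold and polarity proteins tie the junction to the cytoskeleton and set the apical side of the cell. Of their 14 tested members, 3 rose and 7 fell in double loss against Lin28b loss, 71.4% beside 36.6% of all genes. Their median log2 difference was -0.32, beside -0.01 over all genes. With arrays scaled to a common median, 3 rose and 4 fell among all 50 tested genes of the lists, so not all of these calls held. Pard6g, a PAR6 polarity adaptor, fell in double loss, with log2 differences of -1.15 ± 0.11 from wild type (adjusted p = 6.71e-06) and -1.05 ± 0.11 from Lin28b loss (adjusted p = 1.69e-05). Cgn, which encodes the tight junction plaque protein cingulin, fell in both comparisons, with log2 differences of -1.2 ± 0.16 (adjusted p = 1e-04) and -0.77 ± 0.16 (adjusted p = 0.00263), the latter call being lost with arrays scaled to a common median (adjusted p = 0.0673). Cgn was above background on 1 of 3 double-loss arrays and on all 9 others. In the opposite direction, Amotl2, an angiomotin-family junction protein, was higher by 0.77 ± 0.11 in double loss than in Lin28b loss (adjusted p = 0.000187), and Cgnl1, the cingulin-like paralog, by 0.68 ± 0.10 (adjusted p = 0.000177).

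Among the 6 tested claudins and tight junction membrane proteins outside the chosen 9, 2 rose and 0 fell in Lin28a loss against wild type, by limma. This was 33.3% beside 36.7% of all genes. Cldn12 rose by 0.46 ± 0.11 (adjusted p = 0.00563). Cldn5, the claudin of endothelial barriers, was above background on the 3 Lin28a-loss arrays and on no other. It was at least 1.48-fold higher there than in wild type (adjusted p = 0.00163). Cldn5 passed the detection filter only through Lin28a loss, so its p-value and its place in the count are not independent of the filter. In double loss against Lin28b loss Cldn12 rose by 0.30 ± 0.11 (adjusted p = 0.0495) and Cxadr, which encodes the coxsackievirus and adenovirus receptor of the JAM-related family, rose by 0.61 ± 0.13 (adjusted p = 0.00249).

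Of 12 tested adherens junction genes, 4 rose and 1 fell in Lin28a loss, 3 rose and 0 fell in Lin28b loss, and 4 rose and 2 fell in double loss against Lin28b loss. These were 41.7%, 25% and 50% of the 12, beside 36.7%, 36.2% and 36.6% of all genes. Jup, which encodes plakoglobin, was above background on the 3 Lin28b-loss arrays and on no other. It was at least 1.17-fold higher there than in wild type (adjusted p = 9.53e-07) and at least 1.2-fold higher than in double loss (adjusted p = 2.77e-06). Jup passed the detection filter only through Lin28b loss, so its p-values and its place in these counts are not independent of the filter. Nectin3 passed the filter only through double loss, where it was counted as a rise against Lin28b loss. Lmo7 passed it only through Lin28a loss and double loss, the groups where it was counted as a rise. The places of Nectin3 and Lmo7 in these counts are likewise not independent of the filter. Cdh3, which encodes P-cadherin and neighbours Cdh1 on chromosome 8, rose by 0.48 ± 0.10 in Lin28a loss (adjusted p = 0.00201) and differed by 0.23 ± 0.10 in Lin28b loss (adjusted p = 0.0848). Cdh4, the other cadherin tested in this list, rose by 0.98 ± 0.14 in Lin28a loss against wild type (adjusted p = 0.000154). It also rose by 0.65 ± 0.14 in double loss against Lin28b loss (adjusted p = 0.00294), where Cdh1 was lower. Cdh4 differed by 0.11 ± 0.14 in Lin28b loss from wild type (adjusted p = 0.584). Among other cytoplasmic partners of E-cadherin, Ctnnb1, which encodes beta-catenin, differed by -0.06 ± 0.15 in Lin28a loss (adjusted p = 0.782) and Ctnna1, which encodes alpha-catenin, by 0.10 ± 0.10 (adjusted p = 0.456). Nectin2, an adhesion receptor linked to afadin, fell by 0.86 ± 0.14 in double loss against Lin28b loss (log2 difference -0.86, adjusted p = 0.000449).

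Of the 4 tested desmosome genes, 1 rose and 0 fell in Lin28a loss, and 2 rose and 1 fell in Lin28b loss. These were 25% and 75% of the 4, beside 36.7% and 36.2% of all genes. In double loss against Lin28b loss the 4 differences lay between -0.11 and 0.08, with adjusted p values of 0.416 to 0.706. Dsg2, which encodes desmoglein 2, rose by 0.63 ± 0.12 in Lin28b loss (adjusted p = 0.000989) and by 0.72 ± 0.12 in double loss (adjusted p = 0.000378) against wild type.

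Among 14 tested regulators of E-cadherin and the epithelial state, 3 rose and 3 fell in Lin28a loss and 4 rose and 3 fell in Lin28b loss. In double loss against Lin28b loss 1 rose and 6 fell. These were 42.9%, 50% and 50% of the 14, beside 36.7%, 36.2% and 36.6% of all genes. Esrp1, an epithelial splicing regulator, was like Cdh1 highest in Lin28b loss and next highest in Lin28a loss. It rose by 0.73 ± 0.15 in Lin28a loss (adjusted p = 0.00176) and by 1.41 ± 0.15 in Lin28b loss (adjusted p = 1.16e-05), differed by -0.25 ± 0.15 in double loss from wild type (adjusted p = 0.206), and fell from Lin28b loss to double loss (log2 difference -1.66 ± 0.15, adjusted p = 3.08e-06). The call of Esrp1 in Lin28a loss was lost with arrays scaled to a common median (adjusted p = 0.13), and with array weights Esrp1 was called lower in double loss than in wild type (-0.45, adjusted p = 0.000747). Grhl2, an activator of epithelial junction genes, was above background on no Lin28b-loss array and on all others, at least 2.22-fold lower there than in wild type (adjusted p = 0.000222), and double loss was at least 2.53-fold higher than Lin28b loss (adjusted p = 9.67e-05). Grhl2 was thus low in the group where Cdh1 was highest.

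Snai3, a member of the Snail family of E-box repressors, rose by 1.15 ± 0.24 in Lin28a loss (adjusted p = 0.00231). It fell in both groups labelled with loss of Lin28b, with log2 differences of -1.43 ± 0.24 in Lin28b loss (adjusted p = 0.000544) and -1.93 ± 0.24 in double loss (adjusted p = 4.76e-05). Chromosome medians, set beside Cdh1 above, were not set beside Snai3. Prss8, which encodes the membrane protease prostasin, fell in each loss group against wild type, with log2 differences of -0.48 ± 0.16 for Lin28a loss (adjusted p = 0.0286), -0.76 ± 0.16 for Lin28b loss (adjusted p = 0.00219) and -1.39 ± 0.16 for double loss (adjusted p = 2.02e-05). The call in Lin28a loss was lost without wild type replicate 2 (adjusted p = 0.0941), wild type replicate 3 (0.0717) or Lin28a loss replicate 3 (0.0883), with median scaling (0.0532), with no detection filter (0.0754) and with only the compared groups fitted (0.073). Zeb1, a repressor of Cdh1, rose by 0.79 ± 0.20 in double loss against wild type (adjusted p = 0.00682), a comparison across chips. Within the second chip, Zeb1 in double loss differed from Lin28b loss by 0.29 ± 0.20 (adjusted p = 0.277). In Lin28b loss, where Cdh1 was highest, Zeb1 differed from wild type by 0.51 ± 0.20 (adjusted p = 0.0621). In Lin28a loss it differed from wild type by -0.27 ± 0.20 (adjusted p = 0.309).

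**Figure D4:**
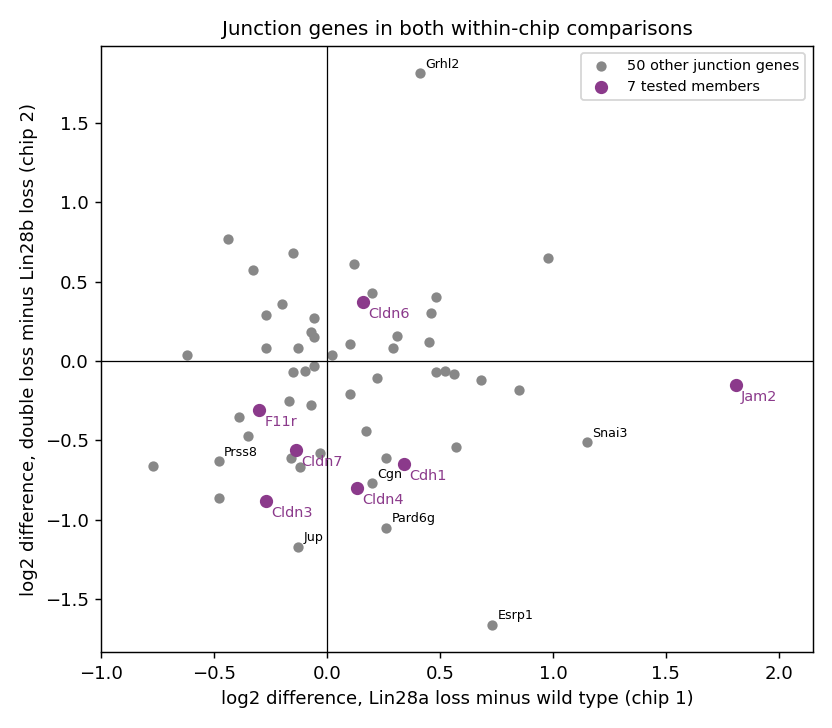
Log2 difference of double loss minus Lin28b loss (vertical axis, chip 2) against that of Lin28a loss minus wild type (horizontal axis, chip 1) for the 50 other tested junction genes (grey) and the 7 tested members of the chosen set (purple), 1 point per gene; the axes share no arrays. Esrp1 and Cdh1 are positive on the horizontal axis and negative on the vertical one, while Grhl2, which was above background on no Lin28b-loss array, and Jup, above background only in Lin28b loss, are drawn at fitted values that are not measured sizes.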

How the data were processed

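Each deposited signal is a mean bead intensity per gene on a linear scale, not background subtracted or normalized, per the file headers (GenomeStudio export, GSGX version 1.9.0). The deposited detection p-value of a signal, per the file headers, ranks it against negative control beads. Genome build and probe design are not given in the sources used here. Columns with no name that matches a sample, and other columns of per-sample values, 72 in all, were not used.

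Background was estimated per array from the detection p of 23306 single-probe genes (936 negative bead types), corrected with normexp in limma 3.58.1 (R 4.3.3), and the signal was taken to log2 after adding an offset of 16 and quantile normalized. Of 10372 entries past the filter (detection p under 0.01 on all 3 arrays of a group), 9920 were tested after 452 further entries of a name were dropped. limma's lmFit and eBayes ran on all 12 arrays, with Benjamini-Hochberg adjustment and a threshold of 0.05, and were checked on simulated data. Intervals are at 95%, and the number of arrays limits their precision. Names and chromosomes came from RefSeq (GRCm38.p6), where 18045 genes were found by Entrez identifier, 2073 through their symbol and 2663 through a synonym, the other 8073 names being those of the file. The design had planned the named-gene rule given in the report. The 9 genes and the lists were chosen with earlier results of these data known. Alternatives were median scaling, cyclic loess, no background correction, an offset of 50, no detection filter, genes detected on all arrays, the compared groups alone, array weights, a replicate block and leaving out each replicate. Leaving out the brightest arrays was added after seeing the data.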

Additional observations from a re-analysis of the deposited data

Results flagged for a closer look

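The effect of Lin28a loss was compared between lines labelled with loss of Lin28b and lines without that label, each within 1 chip. The differences are the values below (log2, interaction in limma across all genes, adjusted by Benjamini-Hochberg). Esrp1 had -2.40 ± 0.21 (SE, adjusted p = 2.89e-06), Snai3 -1.66 ± 0.34 (adjusted p = 0.0021), Pard6g -1.31 ± 0.16 (adjusted p = 4.85e-05), Jup -1.04 ± 0.14 (adjusted p = 0.000126) and Cgn -0.98 ± 0.23 (adjusted p = 0.00528), while Grhl2 had 1.40 ± 0.34 (adjusted p = 0.00627). The values of Jup, above background only in Lin28b loss, and Grhl2, above background on no Lin28b-loss array, are fitted values and not measured sizes. Jup passed the detection filter only through Lin28b loss, so its p-value is not independent of the filter. Cgn was above background on 1 of 3 double-loss arrays. With arrays scaled to a common median, the adjusted p was 0.0641 for Cgn and 0.146 for Grhl2. For Cdh1 all 3 Lin28a-loss arrays lay above the wild-type mean and all 3 double-loss arrays below the Lin28b-loss mean, a difference of -0.99 that is given as a description, with no test read from it, because Cdh1 was chosen with these values known. The median of the 489 tested chromosome 8 genes was -0.59 in the same comparison. No chromosome median was set beside the values of the other genes named here.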

How the results depend on the processing

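No value of the 9 genes that was called, and none of the 7 other genes named by rule, changed direction under any alternative run. Of 765 recomputed values of the tested members 726 moved by less than the spread between replicates and 39 moved more. Scaling arrays to a common median brought the median difference of all genes to -0.22 in Lin28b loss and -0.13 in double loss against wild type and lowered the genes past the threshold from 3644 (1817 higher, 1827 lower) to 1408 (987 higher, 421 lower) in Lin28a loss, from 3587 (1878 and 1709) to 1735 (393 and 1342) in Lin28b loss, from 3675 (1779 and 1896) to 1725 (471 and 1254) in double loss against wild type, from 3632 (1676 and 1956) to 1229 (635 and 594) in double loss against Lin28b loss, and from 3748 (1733 and 2015) to 1471 (556 and 915) in the interaction. Other junction genes past the threshold came to 5, 7, 7, 7 and 7 in the same order, and members to 1 each in Lin28a loss, double loss against Lin28b loss and the interaction. Array weights gave 5680, 5757 and 5744 genes in Lin28b loss, double loss against wild type and double loss against Lin28b loss, 31 other junction genes in Lin28b loss and 5 members in Lin28a loss, and fitting the compared groups alone gave 1 member in Lin28a loss. The cause of these moves was not tested. Leaving out each replicate in turn gave 2897 to 3848 genes in Lin28a loss, 2799 to 3917 in Lin28b loss, 3012 to 3980 in double loss, 2739 to 3990 in double loss against Lin28b loss and 3137 to 4165 in the interaction. Other junction genes came to 17 to 21, 14 to 21, 19 to 23, 21 to 26 and 19 to 23, and members to 2 to 4, 3 to 3, 4 to 5, 3 to 6 and 4 to 5. Members in double loss against Lin28b loss numbered 3 without Lin28b loss replicate 1 or without double loss replicate 2. Replicate numbers did not pair the arrays, since the correlation of same-numbered deviations across groups ranged from -0.573 to 0.687, and with the replicate block 3733, 3738, 3764, 3739 and 3863 genes passed, with 19, 19, 22, 23 and 22 other junction genes. Without the 3 brightest arrays, 4966, 4801, 4319, 4903 and 5198 genes passed. Signals of Cldn3 in double loss and of Ocln lay near background, which limits what their differences can show.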
